A study of Mus musculus with 4 samples.

Results

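The genes described here are 9 that mark the projection neurons of the striatum, measured in samples of mouse prefrontal cortex: Pde10a, Rgs9, Adora2a, Ppp1r1b, Adcy5, Rarb, Isl1, Six3 and Rxrg. Members were found as probe sets whose platform annotation gives 1 gene symbol, that symbol being 1 of the 9 names. Of the 9 genes, 8 were measured this way, by 20 probe sets, among 18193 genes with a single symbol in the whole table. No probe set carried Adora2a, the gene of the adenosine receptor of striatal neurons, as its only symbol, and it was not analysed here. The study compared mice from an environment of repeated social threat with control mice, by gene expression in prefrontal cortex. Each of the 4 Affymetrix arrays held RNA pooled from 5 mice, giving 2 threat pools and 2 control pools. No strain, sex, age or genotype is given in the labels, so the groups are known by their environment alone. A pool averages its mice, so variation among single animals cannot be seen here, and nothing says how the pools were separated in cage or day.

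Projection neurons make up most neurons of the striatum and come in a pair of types, one bearing the dopamine receptor D1 and the other the receptor D2 with the adenosine receptor that Adora2a encodes. In both types, receptors act through the olfactory-type G protein on adenylyl cyclase 5 (Adcy5), which makes cyclic AMP. Phosphodiesterase 10A (Pde10a) breaks that signal down, Rgs9 shortens G protein signalling, and Ppp1r1b encodes DARPP-32, which turns cyclic AMP into inhibition of protein phosphatase 1. Isl1 and Six3 are homeobox factors that guide the D1 and the D2 type during development, and Rarb and Rxrg are retinoid receptors that pair on DNA. The striatum lies beneath the frontal cortex, while several of these genes are also read in cortical neurons themselves, Ppp1r1b and Pde10a among them.

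No member changed by the test across all probe sets, and the members did not shift in a common direction. With each gene represented by its brightest probe set over the 4 pools, 3 genes lay above 0 and 5 below 0 in threat minus control, with a median log2 difference of -0.05, against 0.02 over all 45037 probe sets. Pde10a, Isl1 and Six3 had both threat pools below both control pools, and Rarb and Rxrg had both above. The pools of Rgs9, Ppp1r1b and Adcy5 overlapped. So 5 of 8 genes had pools that did not overlap, where 43.2% of all probe sets did. In limma's test no probe set of any gene passed an adjusted p of 0.05 (0% of 45037), while 4774 had an unadjusted p under 0.05 (10.6%), among them 2 of the 20 member probe sets, 1 of Pde10a and 1 of Six3. A difference of at least 1.5-fold with pools apart was met by 2 of the 20, 1 of Pde10a and 1 of Isl1 that had a threat pool at background, and by 0.83% of all probe sets (0.719% with threat lower, as in both). After cyclic loess the pools of Rarb and Isl1 overlapped, which left 3 genes apart. With each array centred on its median those of Isl1 overlapped, which left 4. Without control pool 1 all 8 were apart, with Rgs9, Ppp1r1b and Adcy5 then higher in threat, and without threat pool 2 it was 5. Fewer pools have to lie apart when 1 is left out. The 43.2% holds for the deposited values of all 4 pools, and no such share is given after these changes. In bulk tissue, fewer cells of a type and less RNA per cell cannot be told apart.

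**Figure D1:**
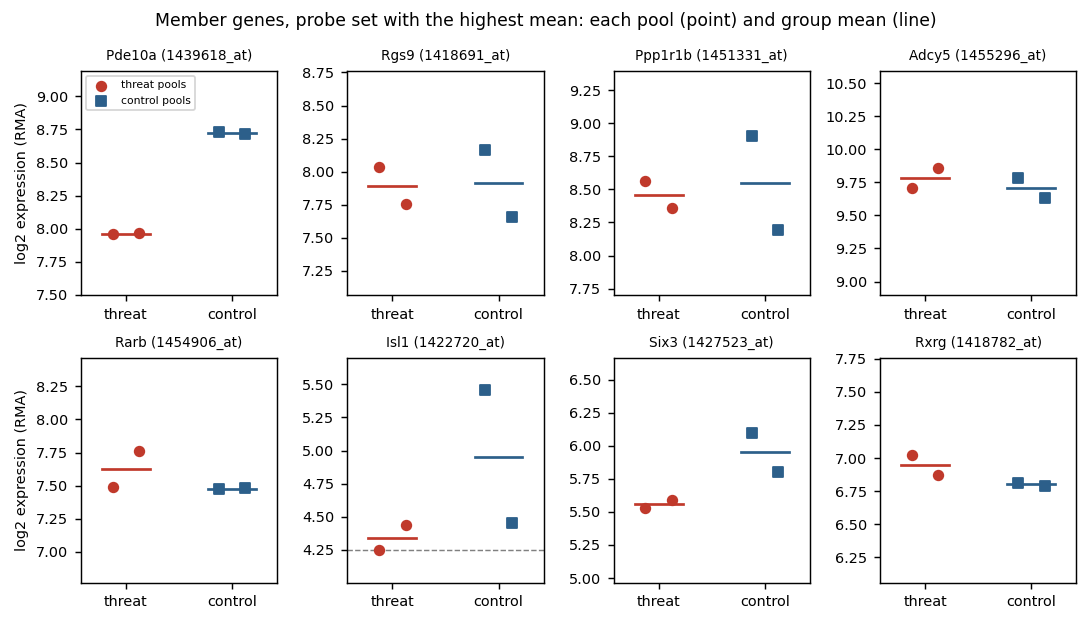
Log2 expression of the 8 measured genes in each pool (points for threat, squares for control), with the group mean as a line; every panel spans the same log2 range, and the dashed line is the highest Bacillus control value, 4.25. Pde10a is at 7.96 in both threat pools and above 8.7 in both control pools, while the pools of Rgs9, Ppp1r1b and Adcy5 overlap.

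Pde10a, the phosphodiesterase that degrades cyclic AMP and cyclic GMP in striatal neurons, had the largest separation of the members by 1 of its probe sets and none of that size by the others. Probe set 1439618_at measured 7.96 and 7.96 in the threat pools, against 8.73 and 8.71 in the control pools (log2). Both pools of a group were thus nearly equal, with a difference of -0.01 between the threat pools and of 0.02 between the control pools. The log2 difference was -0.76 ± 0.09 (SE), or 1.70-fold lower in threat, and limma's test gave an adjusted p of 0.32. Its unadjusted p of 0.000199 ranked 27 among all probe sets, and leaving out any 1 pool moved the difference only between -0.77 and -0.75. The scaling alternatives gave -0.84 (cyclic loess) and -0.73 (each array centred on its median). With all 5 probe sets averaged, Pde10a was at -0.12.

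The other 4 probe sets of Pde10a did not repeat that difference. Probe set 1458499_at measured 7.82 and 7.84 in threat, against 7.68 and 7.55 in control, a difference of 0.22 ± 0.10. Probe set 1419389_at measured 7.56 and 7.56 in threat, against 7.54 and 7.53 in control, a difference of 0.03 ± 0.09. Both thus lay slightly higher in both threat pools. Probe set 1419390_at measured 5.73 and 5.89 in threat, against 5.65 and 5.62 in control, a difference of 0.17 ± 0.10. Probe set 1432490_a_at measured 4.93 and 4.76 in threat, against 5.05 and 5.13 in control, a difference of -0.25 ± 0.10. All 5 probe sets lay above the highest Bacillus control value of 4.25 in every pool, a guide to background since those controls match no mouse transcript. Thus 2 probe sets were lower in both threat pools and 3 were higher, and the adjusted p of the 4 lay between 0.478 and 0.932. The sign of 1419389_at turned to -0.04 after cyclic loess.

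**Figure D2:**
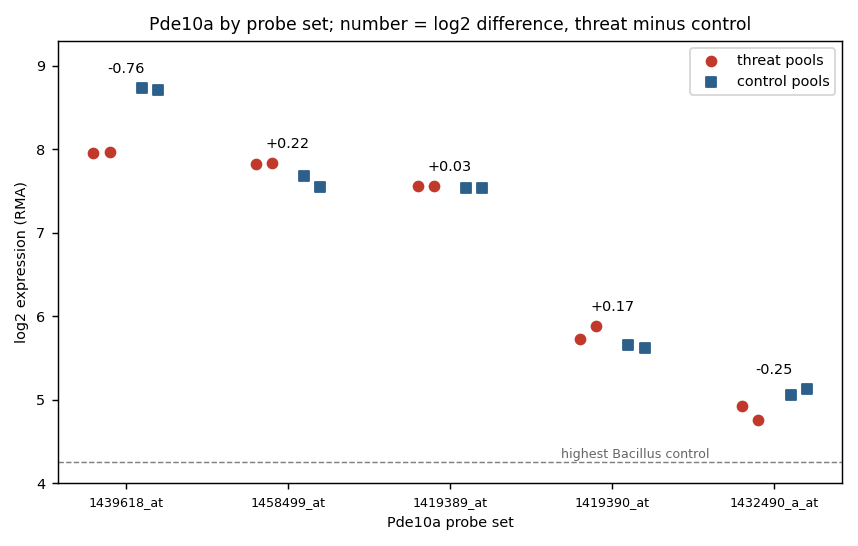
Log2 expression of the 5 Pde10a probe sets in each pool, threat pools as points on the left of each set and control pools as squares on the right; the number is the log2 difference, threat minus control. Only 1439618_at shows a difference of more than 0.25 in size, at -0.76.

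The spread of the Pde10a probe sets was set beside that of other genes. For Pde10a, 4 probe sets averaged above 5.56, the middle value of the table, and their differences spanned 0.98 on the log2 scale. Of 484 genes with as many probe sets above that level, 7 spanned at least as much (1.45%), and the median span was 0.31. Probe sets can read different ends or forms of a transcript, and which ones those of Pde10a read is not given in the sources used here. This comparison was made after the values were seen.

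RefSeq lists more than 1 start for Pde10a, and the 250 bases before a pair of them are printed because the probe sets of the gene differ. Both are on the plus strand of chromosome 17 in GRCm38.p6, 48240 bases apart, at chr17:8801495-8801744 and chr17:8849735-8849984. The G and C content is 72.8% before the first and 56.0% before the second, where the median of all promoters is 52.4%. Capitals mark the letters CCAAT, found on either strand in 33.8% of 32851 promoters, and the first sequence holds none.
Pde10a, first: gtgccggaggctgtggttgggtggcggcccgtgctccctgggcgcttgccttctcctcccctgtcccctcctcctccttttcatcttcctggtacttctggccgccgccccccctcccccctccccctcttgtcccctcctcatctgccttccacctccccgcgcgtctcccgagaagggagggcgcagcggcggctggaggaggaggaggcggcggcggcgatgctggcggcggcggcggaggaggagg
Pde10a, second: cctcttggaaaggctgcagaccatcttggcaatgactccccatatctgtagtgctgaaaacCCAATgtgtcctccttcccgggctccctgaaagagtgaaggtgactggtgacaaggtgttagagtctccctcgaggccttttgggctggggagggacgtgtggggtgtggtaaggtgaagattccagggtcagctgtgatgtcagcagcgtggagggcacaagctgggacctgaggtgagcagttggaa

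The genes whose 4 pools most resembled Pde10a were taken by the root mean square distance between centred log2 values, over 20577 probe sets of other genes above the median level. The nearest were Appbp2 (distance 0.019), Rad21 (0.023), Oxct1 (0.031), Syap1 (0.036), Cmpk2 (0.038) and Klhl4 (0.038). With 4 arrays this likeness is a description. Appbp2, which binds the amyloid precursor protein, differed by -0.77, while its 3 other probe sets above the median averaged 0.15. Rad21, a subunit of cohesin, differed by -0.78, and its 2 others averaged -0.47. Oxct1, an enzyme of ketone body use, differed by -0.71, and its 3 others averaged -0.20. The other probe set of Syap1 was at 0.04 and that of Cmpk2 at -0.03, against -0.80 and -0.69 for the ones named. Klhl4, at -0.73, had no other probe set above the median. The adjusted p of the 6 lay between 0.32 and 0.345 in limma's test.

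Rgs9 and Ppp1r1b, a regulator of G protein signalling and DARPP-32, varied more within the groups than between them. Rgs9 measured 8.03 and 7.75 in the threat pools, against 8.17 and 7.66 in the control pools (1418691_at). Its difference was -0.02 ± 0.19 (adjusted p = 0.979 in limma's test), while the control pools differed by 0.51 and the threat pools by 0.28. Ppp1r1b measured 8.56 and 8.36 in the threat pools, against 8.90 and 8.20 in the control pools (1451331_at). Its difference was -0.09 ± 0.24 (adjusted p = 0.911), while the control pools differed by 0.71 and the threat pools by 0.20. In both genes the threat pools lay between control pool 1, the highest, and control pool 2, the lowest, an order picked after the values were seen and found in 7.55% of all probe sets. The result therefore turned with the control pool left out: Rgs9 was at 0.23 without control pool 1 and at -0.27 without control pool 2, and Ppp1r1b at 0.27 and -0.44. The other 2 probe sets of Rgs9 lay at or near the Bacillus controls, with 4 of 4 and 3 of 4 pools at or below the highest value.

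Adcy5, the adenylyl cyclase of striatal projection neurons, measured 9.71 and 9.86 in the threat pools, against 9.78 and 9.63 in the control pools (1455296_at). The difference of 0.07 ± 0.11 was smaller than the 0.15 that separated the pools of either group (adjusted p = 0.821). Probe set 1447696_x_at, of a class that can also pick up related sequences, gave -0.19 ± 0.11 with both threat pools lower. A dimmer set, 1439829_at, gave -0.24 ± 0.12, with threat pool 2 below the Bacillus maximum, and 1443080_at lay below it in all 4 pools. Averaged over its probe sets Adcy5 stood at -0.06 in place of 0.07.

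Isl1 and Six3, the homeobox factors, had both threat pools below both control pools, and for Isl1 the distance came from 1 control pool. Isl1 measured 4.25 and 4.44 in the threat pools, against 5.46 and 4.45 in the control pools (1422720_at). Control pool 1 thus stood about 1 log2 unit above the rest, and control pool 2 lay within 0.02 of threat pool 2. Threat pool 1 lay just under the Bacillus maximum, so no fold is given. The difference of the measured values was -0.61 ± 0.32 (adjusted p = 0.523), and leaving out control pool 1 gave -0.11, leaving out control pool 2 -1.11. The second set, 1450723_at, measured 3.74 and 3.45 in threat, against 5.73 and 3.70 in control. Only control pool 1 lay above the Bacillus maximum there, so this set has no fold either. Both probe sets of Isl1 therefore read this transcript above background mainly in control pool 1.

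Six3 measured 5.53 and 5.59 in the threat pools, against 6.10 and 5.80 in the control pools (1427523_at), so that the groups were apart with control pool 1 again the highest. The difference was -0.39 ± 0.13 (adjusted p = 0.446; unadjusted p = 0.0234), and -0.24 without control pool 1. Its second set, 1426638_at, measured 5.01 and 4.89 in threat, against 4.90 and 4.84 in control, a difference of 0.08 ± 0.10 with overlapping pools. The third, 1426637_a_at, lay below the Bacillus maximum in all pools. The lower Six3 values thus rested on 1 of 2 probe sets above background, and with its probe sets averaged Six3 was at -0.11.

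The retinoid receptors Rarb and Rxrg lay slightly higher in both threat pools and neither passed the test. Rarb measured 7.49 and 7.76 in the threat pools, against 7.47 and 7.48 in the control pools (1454906_at), a difference of 0.15 ± 0.12 (adjusted p = 0.660). Threat pool 1 was almost level with the controls, and without threat pool 2 the difference was 0.01. Rxrg measured 7.03 and 6.87 in the threat pools, against 6.81 and 6.79 in the control pools (1418782_at), a difference of 0.15 ± 0.10 (adjusted p = 0.601). It was 0.07 without threat pool 1 and 0.22 without threat pool 2. Each is read by a single probe set.

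Retinoid receptors bind paired copies of a short motif, and Rarb is a known target of its own receptor family through such a pair before one of its starts. The 250 bases before the RefSeq starts of Rarb (minus strand, chr14:16575477-16575726) and of the second listed start of Rxrg (plus strand, chr1:167618015-167618264) are shown for that reason, in GRCm38.p6. Capitals in Rarb mark the half-sites GGTTCA and AGTTCA with any 5 bases between them, from 53 to 37 bases before the start. These letters are the form of Rarb itself, so a match there was set in advance. They were found in 2 of 32851 promoters (0.00609%), those of Rarb and Gm52524. The half-site AGGTCA repeated with the same gap was found in 3 promoters (0.00913%) and in none of the members' promoters. Capitals in Rxrg mark the single motif AGGTCA, 88 to 83 bases before the start, which 14% of promoters hold. Both strands were searched, over the 9 promoters listed for 7 of the members.
Rarb: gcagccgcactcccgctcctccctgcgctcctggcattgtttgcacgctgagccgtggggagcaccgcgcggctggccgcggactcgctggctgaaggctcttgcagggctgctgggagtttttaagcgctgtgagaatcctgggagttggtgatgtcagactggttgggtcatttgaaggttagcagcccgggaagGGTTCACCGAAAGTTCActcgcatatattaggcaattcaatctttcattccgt
Rxrg: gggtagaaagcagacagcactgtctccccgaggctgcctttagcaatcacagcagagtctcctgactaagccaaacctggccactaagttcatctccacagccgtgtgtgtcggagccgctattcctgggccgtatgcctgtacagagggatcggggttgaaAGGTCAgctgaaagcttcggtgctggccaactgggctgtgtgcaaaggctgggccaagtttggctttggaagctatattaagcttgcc

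Other genes of striatal projection neurons were set beside the members to see whether they moved together. Of 36 such genes 33 were measured, with a median log2 difference of -0.001, 16 above 0 and 17 below 0. Both threat pools lay above the control pools in 5 (23.9% of all probe sets) and below them in 6 (19.4% of all probe sets). None passed the adjusted test, and 1 of the 33 had an unadjusted p under 0.05 in limma's test (10.6% of all probe sets). Drd1, the D1 dopamine receptor, measured 8.44 and 8.11 in the threat pools, against 8.27 and 7.82 in the control pools, a difference of 0.23. Drd2, the D2 receptor, measured 5.87 and 5.61 in threat, against 6.05 and 5.48 in control, a difference of -0.03. These receptors did not separate the groups. Penk, the enkephalin precursor of D2 neurons, measured 9.05 and 8.91 in threat, against 9.67 and 9.12 in control, a difference of -0.42 ± 0.19 (adjusted p = 0.498). Tac1, the substance P precursor of D1 neurons, measured 9.97 and 9.44 in threat, against 10.42 and 9.64 in control, a difference of -0.32 ± 0.30. Without control pool 1 Penk was at -0.14 and Tac1 at 0.07.

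The pools of a group differed in a like way in most of the more striatum-restricted genes. In the 11 measured of 12 such genes (Drd1, Drd2, Tac1, Penk, Gpr6, Rasd2, Syndig1l, Lrrc10b, Gng7, Gnal and Scn4b), control pool 1 stood above control pool 2 in 10 and threat pool 1 above threat pool 2 in 9. Both held in 9 of the 11 (81.8%), in 3 of the 8 members (37.5%) and in 31.9% of all probe sets. Over all 33 other striatal genes measured, which include these 11, both held in 12 (36.4%). Among the genes of GABA neurons from any region, both held in 3 of 7 (42.9%). The median difference between the control pools was 0.32 and that between the threat pools 0.17, while threat and control differed by a median of -0.05. That median was 0.07 without control pool 1, -0.32 without control pool 2 and -0.28 without threat pool 1. Of the 11 genes, 7 lay below 0, and both threat pools lay below the control pools in 4 and above them in 0, against 19.4% and 23.9% of all probe sets. Scn4b, a sodium channel subunit, was the widest, at 6.88 and 6.33 in threat, against 7.12 and 6.19 in control. The 3 members with this order were Rgs9, Ppp1r1b and Rxrg, and in the other 5 threat pool 1 lay below threat pool 2. For Pde10a (1439618_at) the pools of a group were within 0.02 of each other. The mean log2 level over the 8 members was 7.32 and 7.32 in the threat pools, against 7.68 and 7.34 in the control pools. That of the 11 genes was 7.78 and 7.61 in threat, against 8.002 and 7.62 in control. Control pool 1 was thus the highest on both counts, while control pool 2 lay near both threat pools in the members and near threat pool 2 in the 11 genes. The mean of the members holds Pde10a by 1439618_at, whose difference its other probe sets did not repeat. By the median of deviations from each gene's mean, the members stood at -0.05 and -0.15 in threat, against 0.30 and -0.10 in control. How much striatal tissue a pool held was not measured, and its part in these values was not tested.

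**Figure D3:**
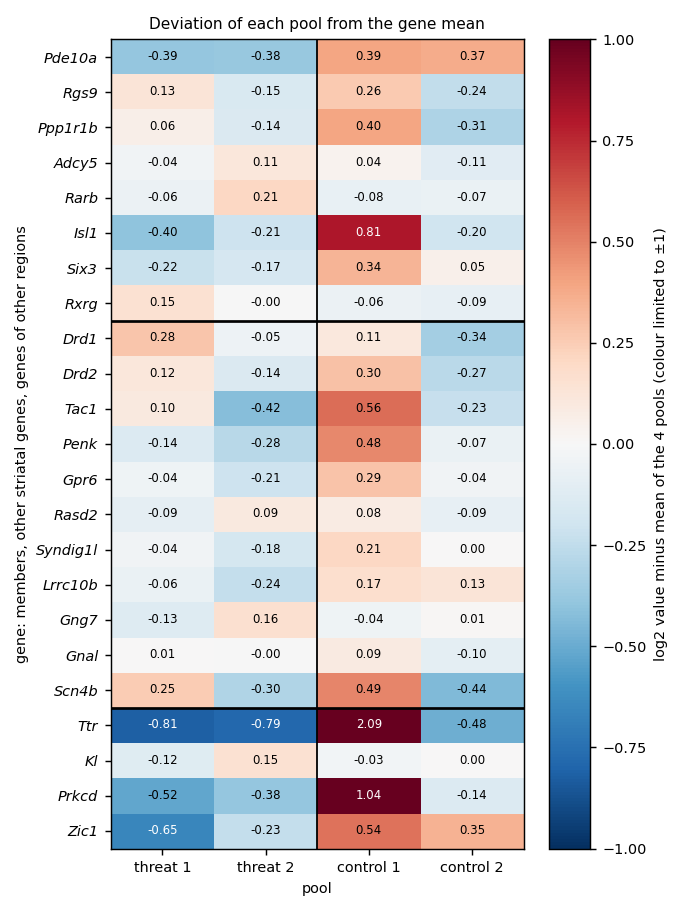
Deviation of each pool from the mean of the 4 pools (log2), threat pools on the left and control pools on the right, for the 8 members, 11 other striatal genes and 4 genes of other regions; numbers are the deviations and the colour is limited to 1 on either side. Control pool 1 is above the mean in most striatal genes and in Ttr and Prkcd, and Pde10a alone among the members has both control pools far above the mean and both threat pools far below it.

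The other striatal transcripts lay on both sides of 0, and those chosen by role are given first. The G protein subunits of this pathway, Gnal (0.01) and Gng7 (0.03), the small GTPase Rasd2 (0.0009) and the transcription factor Bcl11b (-0.001) stood near 0. Foxp1, a factor of projection neurons that cortex also uses, was at 0.09, and Meis2 at -0.19 with both threat pools lower. Pde1b, a calcium-dependent phosphodiesterase, measured 10.43 and 10.42 in threat, against 10.24 and 10.29 in control, a difference of 0.15. Ptpn5, the striatum-enriched phosphatase, was at 0.13 with both threat pools higher. Farther below 0, and named after their values were seen, were Zfp503, Lrrc10b, Slc35d3, Gpr6 and Syndig1l. Lrrc10b, the gene of this list with an unadjusted p under 0.05 (0.029), measured 6.65 and 6.47 in threat, against 6.88 and 6.84 in control, a difference of -0.30 ± 0.10 (adjusted p = 0.452). Gpr6, an orphan receptor of D2 neurons, was at -0.25 and Syndig1l at -0.21, both with threat pools apart from the control pools. Without control pool 1 they were at -0.09 and -0.11. Zfp503, a zinc finger factor, was at -0.35 with overlapping pools and at -0.01 without control pool 2, and Slc35d3, at -0.27, lay below the Bacillus maximum in all pools.

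**Figure D4:**
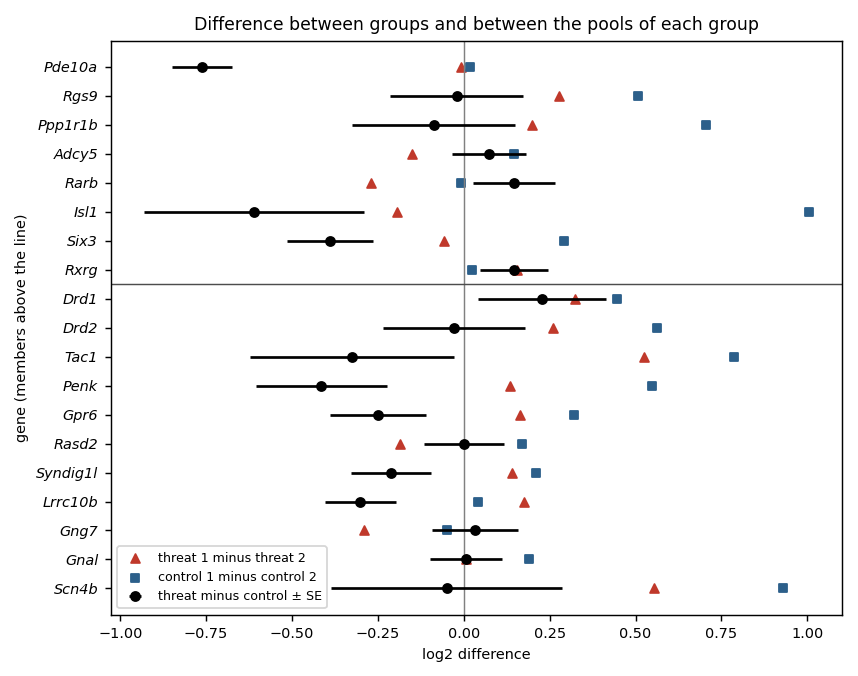
Log2 differences for the 8 members (above the line) and 11 other striatal genes: black circles give threat minus control with its SE, triangles threat pool 1 minus threat pool 2, squares control pool 1 minus control pool 2. For Rgs9, Ppp1r1b, Drd2 and Scn4b the squares lie farther from 0 than the circles, and for Pde10a the circle stands alone at -0.76.

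In the wider dopamine, adenosine and cyclic AMP pathway, 26 of 27 genes were measured, with a median of 0.02, and the pools were apart in 8 (43.2% of all probe sets), in 4 of them with threat lower (19.4% of all probe sets). Those 4 were Pde10a, whose other probe sets did not repeat its difference, and 3 genes for kinase and phosphatase subunits. These 3 were named after their values were seen. Ppp1cb, a catalytic subunit of the phosphatase that DARPP-32 inhibits, was at -0.60 ± 0.09. Prkaca, a catalytic subunit of protein kinase A, was at -0.36 ± 0.10, and its regulatory subunit Prkar2b at -0.27 ± 0.10. The adjusted p of the 3 lay between 0.395 and 0.461. Prkaca was read by a probe set ending in _x_at, of the class that can also pick up related sequences. Each of the 3 is given by its brightest probe set alone, and any other probe sets of these genes were not compared. Prkacb, the other main catalytic subunit, was at 0.08, and the partners of Rgs9, Gnb5 and Rgs7bp, were at 0.08 and 0.05. No gene of this list passed the adjusted test.

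Of the retinoid genes, 18 of 19 were measured, with a median of 0.05, threat higher in both pools for 4 (23.9% of all probe sets) and lower for 2 (19.4%), and none had an unadjusted p under 0.05 (10.6%). The median was -0.10 without threat pool 2 and -0.009 without control pool 1. The receptors Rara, Rxra and Rxrb were at 0.14, 0.06 and 0.06 with overlapping pools. Nrip1, a corepressor that retinoids induce, was the highest at 0.23 ± 0.09 (0.15 with its probe sets averaged). Aldh1a1, an enzyme of retinoic acid synthesis, was the lowest and measured 7.60 and 7.98 in threat, against 7.89 and 8.54 in control, with overlapping pools. Its difference of -0.43 ± 0.24 was -0.10 without control pool 2 and -0.75 without control pool 1. Of the close relatives of the members, 19 of 22 were measured, with a median of 0.07, threat higher in both pools for 7 and lower for 4 (23.9% and 19.4% of all probe sets). This median was 0.12 without threat pool 2, 0.005 without threat pool 1 and -0.03 without control pool 1. The calcium-stimulated cyclase Adcy8 measured 7.48 and 7.61 in threat, against 7.14 and 7.09 in control, a difference of 0.43 ± 0.10 (adjusted p = 0.423). Six4, at -0.43, lay below the Bacillus maximum in all pools.

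The tissue was checked against markers of cortex and of neighbouring regions. Slc17a7, the vesicular glutamate transporter of cortical excitatory neurons, measured 11.05 and 10.93 in threat, against 10.78 and 10.73 in control, and Tbr1, a factor of deep cortical neurons, 8.53 and 8.62 in threat, against 9.22 and 8.997 in control. Of 9 cortical excitatory genes 8 were measured, with a median of 0.06 (-0.04 without control pool 1). The 7 genes of GABA neurons had a median of -0.07, from Gad1 at -0.42 to Lhx6 at 0.27. With its probe sets averaged Gad1 was at -0.15, and Lhx6 was at 0.10 without threat pool 1 and 0.43 without threat pool 2. The GABA median was 0.02 without control pool 1, -0.30 without control pool 2 and -0.16 without threat pool 1. Cholinergic neurons of striatum and basal forebrain, which also use Isl1, were read by 6 of 7 markers with a median of -0.15. Of these, Lhx8, Gbx2 and Slc5a7 lay at or below the Bacillus maximum in all pools, and the 0.21 of Slc5a7, numerically the highest, is a difference between background values. Slc18a3 lay at or below that maximum in 3 of its pools. The lowest was Zic1 at -0.89, which is also among the septal genes given below. Leaving out control pool 1 gave a median of -0.01, leaving out control pool 2 one of -0.23. Chat, which makes acetylcholine, measured 4.57 and 4.88 in threat, against 5.16 and 4.58 in control, with control pool 1 the highest.

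Some genes of tissue beside the striatum also stood high in control pool 1, Ttr and Prkcd among them. Ttr, the transthyretin of choroid plexus, measured 6.15 and 6.18 in threat, against 9.05 and 6.48 in control. Prkcd, a kinase strong in thalamus, measured 6.36 and 6.496 in threat, against 7.92 and 6.74 in control. In Ttr, Prkcd and Isl1 alike, control pool 1 thus stood over 1 log2 unit above control pool 2. Of 7 choroid plexus and ventricle lining genes 5 were highest in control pool 1, with a median difference of -0.56 (-0.32 without control pool 1) and Kl the highest at 0.03. Their mean log2 level was 4.91 and 4.94 in the threat pools, against 5.96 and 5.24 in the control pools. Control pool 1 lay below control pool 2 in Kl (5.69 against 5.73) and in Folr1 (4.66 against 4.79). Without control pool 1, Ttr was at -0.32 in place of -1.60 and Prkcd at -0.31 in place of -0.90. Of 6 thalamic genes, with a median of -0.07 (-0.24 without control pool 2, -0.14 without threat pool 2), 2 were highest in control pool 1, and Slc17a6 was the highest at 0.29. Their mean level was 6.996 and 7.06 in threat, against 7.45 and 6.96 in control. All 4 septal genes lay below 0, with a median of -0.31 (-0.61 without threat pool 2), from Zic1 at -0.89 to Trpc4 at -0.17. Zic1 measured 9.18 and 9.60 in threat, against 10.38 and 10.18 in control. Both threat pools were lower in 2 of the 4 (19.4% of all probe sets), Zic1 and Dach2, and Dach2 lay near the Bacillus maximum. Trpc4 and Zic2 had overlapping pools, and Zic2 was at 0.26 without threat pool 1.

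Myelin genes were lower in both threat pools and highest in control pool 1 in all 7 of 8 genes measured, with a median of -0.99, from Mobp at -1.31 to Mbp at -0.69. Of the other cell types, the 6 vessel genes had a median of -1.16 and were highest in control pool 2 (-0.69 without that pool, -1.62 without control pool 1). The 5 microglial genes had a median of -0.14 (-0.07 without threat pool 1, -0.21 without threat pool 2), and the 5 astrocyte genes a median of -0.08 (0.01 without threat pool 1, -0.23 without threat pool 2). Their part in the values of the striatal genes was not tested.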

How the data were processed

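Prefrontal cortex RNA of 4 pools of 5 mice (2 threat, 2 control) was read on Affymetrix arrays. The authors deposited 1 log2 expression value per probe set and array, made with RMA per the submitters' processing notes. The sources used here name no RMA version or settings, and no detection calls were used. The 64 control probe sets were left out, which left 45037. By the platform annotation, 34945 of these had 1 symbol and 932 several, and 9160 were unnamed here. Values ran from 2.51 to 14.37, and 27 Bacillus controls reached 4.25.

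Threat was compared with control in limma 3.58.1 under R 4.3.3 (lmFit, eBayes, 2-sided, Benjamini-Hochberg over all probe sets), checked on simulated data. The brightest probe set stood for a gene. With 2 pools a side an exact permutation test reaches 0.333 at best and was not used. Precision is limited by the number of arrays, and p-values measure only the spread between pools.

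Members and lists were chosen with earlier results of these data known. Named were all members, others chosen by role, and the highest and lowest gene of a list (not for vessel, microglial and astrocyte lists). Exceptions are named in the text. Alternatives were a replicate block, cyclic loess, median centring, an intensity trend, filters, thresholds, gene means and leaving out each pool. Promoters came from RefSeq (GRCm38.p6).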

Additional observations from a re-analysis of the deposited data

How the results depend on the processing

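No alternative gave a probe set past the adjusted p, and none brought past it any of the 46 named genes followed through the alternatives. Ppp1cb, Prkaca and Prkar2b were not among these 46. The same count of 0 was found with the pool number as a replicate block, where the brightest probe set of Pde10a kept -0.76 (adjusted p = 0.368). With probe sets averaged per gene Pde10a was at -0.12. The labels do not say that pool numbers mark shared animals or days. The difference between pools 1 and 2 correlated between the groups at 0.33 across probe sets. Member probe sets past the rule of size were 2, and 1 after cyclic loess, with median centring and among probe sets brighter than the table's median, 0 at 2-fold, and 1 to 3 with a pool left out. Member genes with pools apart were 5, against 3 after cyclic loess, 4 with median centring and 5 to 8 with a pool left out. For these counts, shares of all probe sets under the alternatives are not given. The members' median of -0.05 ranged from -0.36 to 0.14 with a pool left out. That of the other striatal genes, -0.001, was -0.040 after cyclic loess and 0.035 with median centring, and ranged from -0.065 to 0.050 with a pool left out. For reversals the cause was not tested. With median centring, Rgs9 turned to 0.015, Drd2 turned to 0.0078 and Bcl11b turned to 0.035. After cyclic loess, Gnal turned to -0.040, Gng7 turned to -0.034, Rasd2 turned to -0.071 and Rxra turned to -0.0035. With probe sets averaged per gene, Adcy5 turned to -0.058, Gnal turned to -0.18, Ptpn5 turned to -0.022, Bcl11b turned to 0.12, Gnb5 turned to -0.012 and Rxra turned to -0.093. Without probe sets ending in _x_at or _s_at, Meis2 turned to 0.12. With 1 pool left out, the sign turned in 20 of 46 named genes, and a lone pool was assumed to vary like the other group. The ranges were -0.27 to 0.23 for Rgs9, -0.44 to 0.27 for Ppp1r1b, -0.0025 to 0.15 for Adcy5, -0.31 to 0.25 for Drd2, -0.72 to 0.069 for Tac1, -0.089 to 0.10 for Gnal, -0.11 to 0.18 for Gng7, -0.51 to 0.41 for Scn4b, -0.092 to 0.094 for Rasd2, -0.044 to 0.22 for Foxp1, -0.065 to 0.062 for Bcl11b, -0.055 to 0.16 for Rgs7bp, -0.0032 to 0.29 for Rara, -0.054 to 0.17 for Rxra, -0.084 to 0.20 for Rxrb, -0.44 to 0.14 for Chat, -0.23 to 0.044 for Lhx8, -0.32 to 0.90 for Slc17a6, -0.50 to 0.15 for Trpc4 and -0.11 to 0.16 for Kl.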
